A study of Homo sapiens with 6 samples.

Results

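Enzymes that oxidise, reduce or conjugate foreign compounds, hormones and reactive oxygen species, together with the ATP-binding cassette (ABC) proteins that move such compounds across membranes, were described by where they stood on 2 deposited gene lists. One list was named as genes of high expression and the other as genes of low expression in SiHa cells. SiHa is an established line from a squamous cell carcinoma of the cervix that carries human papillomavirus. The members were the listed genes whose symbols begin with the family names CYP, UGT, GST, ALDH, AKR, ADH, SULT, ABC, NQO, TXN, PRDX, GPX or SOD, so they were chosen by name and not by a measured value. The rule found 115 of the 8946 symbols that stood on either list, of which 48 were high-list and 67 low-list genes. Some of these are not detoxification genes: the name TXN also takes proteins with a thioredoxin-like domain, ABCE and ABCF proteins have no membrane span, and 3 of the low symbols (ABCA9-AS1, ABCC5-AS1 and ALDH1L1-AS1) are antisense RNA genes.

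The study compared the fraction of SiHa cells that had migrated through a transwell membrane with the fraction that had not, 10 hours after seeding in plates of 6 wells. Each fraction had 3 libraries, and no treatment or genetic change separated the fractions. The migrated libraries held 23166447 to 25662866 assigned fragments and the non-migrated libraries 18226280 to 33466924. The table of these libraries names its 26006 loci by assembly IDs that the files do not pair with gene names. No level per library and no difference between migrated and non-migrated cells can therefore be given for any gene below, and no test over samples was possible.

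The lists hold symbols and hg19 positions and no expression value, and the sources used here do not state how a gene came to be listed. A place on a list was read as a statement on expression level, not on change between the fractions, and a gene on neither list has no level stated. Since RNA was taken from whole cell populations, fewer expressing cells and less RNA per cell cannot be told apart. All counts below are descriptions.

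Cells handle foreign and reactive compounds in steps. Cytochrome P450 enzymes (CYP) and other oxidoreductases add or expose a reactive group, transferases then attach glutathione, glucuronic acid or sulfate, and ABC transporters export the product. Liver, gut and adrenal gland are known for particular subsets of these enzymes, while thioredoxin, peroxiredoxin, glutathione peroxidase and superoxide dismutase serve almost every cell by removing peroxides and superoxide. Many of the protective genes are targets of the transcription factor NRF2, which the protein KEAP1 holds in check.

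Most listed antioxidant enzymes were high, and most listed genes of the roles grouped here as liver and as steroid were low. Of the 115 members, 41.7% were on the high list, against 50.6% of all listed symbols and 54.1% of all listed protein coding genes. The antioxidant role gave 16 of 20 on the high list, or 80%. The 16 include TXNIP, placed there by its name, which inhibits thioredoxin and is not an antioxidant enzyme. The liver roles, a label for 3 roles set by name (xenobiotic P450 enzymes, UDP-glucuronosyltransferases and alcohol dehydrogenases), gave 3 of 26 on the high list, or 11.5%. They include genes known from other tissues, such as UGT8, CYP2A13 and ADH7, and leave out CYP4A11, CYP4F2 and the GSTA genes. The 11.5% is therefore not a share of all liver enzymes. The steroid roles (steroid hormone, sterol and bile acid enzymes) gave 4 of 12, or 33.3%. RefSeq names 229 protein coding genes that fit the rule, of which 48 (21.0%) were on the high list, 63 (27.5%) on the low list and 118 (51.5%) on neither. The high list took 22.3% of all RefSeq protein coding genes and the low list 18.8%, so the families together were close to the background on the high list and above it on the low list.

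**Figure D1:**
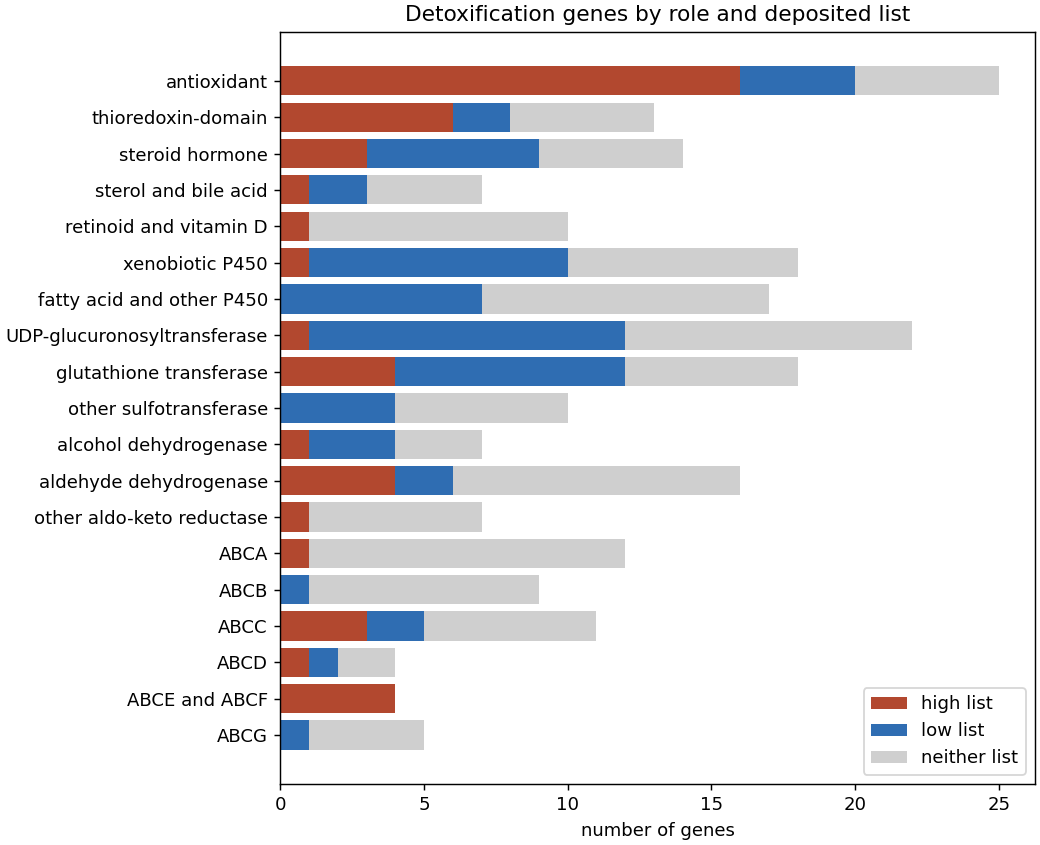
Number of genes (horizontal axis) in each of 19 roles (vertical axis), split into genes on the high list, on the low list and on neither. The antioxidant bar is mostly high with 16 genes, while the bars of xenobiotic P450 enzymes and UDP-glucuronosyltransferases hold 1 high gene each beside 9 and 11 low ones.

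Peroxiredoxins, which reduce hydrogen peroxide and lipid peroxides, were complete on the high list, with all 6 of PRDX1 to PRDX6. They include PRDX3 of mitochondria and PRDX4 of the endoplasmic reticulum. PRDX1 lies at hg19 chr1:45976708-45988719 on the minus strand. Electron donors of most peroxiredoxins, though not of PRDX6, were also high: TXN, the cytosolic thioredoxin (chr9:113006091-113018920), and TXN2, its mitochondrial counterpart. TXNRD1, the cytosolic thioredoxin reductase, was high too. TXNIP, which binds and inhibits thioredoxin, was high as well. The other thioredoxin reductases, TXNRD2 and TXNRD3, were on neither list.

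Superoxide dismutases, which turn superoxide into hydrogen peroxide, divided by where the enzyme works. SOD1 of the cytosol and SOD2 of mitochondria were high, and SOD3, which is secreted, was low. The deposited SOD2 row spans 83.5 kb on the minus strand (chr6:160100096-160183561) and overlaps the high-list genes WTAP by 30.7 kb and ACAT2, both on the plus strand. Without a stated strand setting, fragments of SOD2 and of these genes could not be told apart within the overlaps.

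Glutathione peroxidases were even, with 3 high and 3 low, close to the 50.6% of all listed symbols on the high list. GPX1, the widespread cytosolic form, GPX4, which repairs lipid peroxides in membranes and protects from ferroptosis, and GPX8 of the endoplasmic reticulum were high. GPX2, known from the gut lining, GPX5, known from the epididymis, and GPX6, known from the olfactory epithelium, were low. GPX3, the plasma form, and GPX7 were on neither list. NQO1, the quinone reductase that is a standard readout of NRF2 activity (chr16:69743304-69760707), was high, and NQO2 was on neither.

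Among proteins with a thioredoxin-like domain, 6 of 8 were high. TXNDC5, TXNDC11, TXNDC12 and TXNDC15 are proteins of the endoplasmic reticulum or its membranes, TXNDC17 is cytosolic and TXNL1 associates with the proteasome. The low members were TXNDC8 and TXNDC3, both known from sperm, and TXNDC3 now carries the symbol NME8. The TXNDC5 row spans 145 kb, 4.95 times the gene span in GENCODE 29, and whether fragments of other transcripts were counted in it was not tested.

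Xenobiotic P450 enzymes of families CYP1 to CYP3 gave 1 high and 9 low. The low genes included CYP3A4 (chr7:99354604-99381888), the chief drug oxidising enzyme of human liver, CYP1A2, CYP2A6, CYP2C19 and CYP2E1, which are also liver enzymes, and CYP2A13 and CYP2F1, which are known from the airways. CYP2A7 and CYP3A43 completed the low genes. CYP1B1 (chr2:38294652-38303323), which oxidises oestradiol and polycyclic aromatic compounds outside the liver, was the high one. CYP1A1, CYP2B6, CYP2C8, CYP2C18, CYP2D6, CYP3A5 and CYP3A7 were on neither list.

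P450 enzymes of fatty acids and related substrates gave 0 high and 7 low: CYP4A11, CYP4A22, CYP4B1, CYP4F2, CYP4F8, CYP4Z1 and CYP2W1. CYP4A11 and CYP4F2 hydroxylate the end of fatty acid chains in liver and kidney. Over all P450 names, 3 were high (CYP1B1, CYP11A1 and CYP51A1), 21 low and 31 of 55 RefSeq genes on neither list.

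The UDP-glucuronosyltransferase role, set by the name UGT, gave 1 high and 11 low. Most of its enzymes attach glucuronic acid to compounds such as bilirubin, steroids and drugs. All listed UGT2 genes were low: UGT2A1, UGT2A3, UGT2B4, UGT2B7, UGT2B10, UGT2B11, UGT2B15, UGT2B17 and UGT2B28. UGT3A1 and UGT8, which attach other sugars, were low too, and UGT8 makes galactosylceramide for myelin. UGT1A7 was high (chr2:234590584-234681945), but it is 1 of 9 UGT1A genes that share their last exons. In GENCODE 29 transcripts, 66.4% of the 50-base windows of UGT1A7 occurred letter for letter in another gene of the families, 64.9% in UGT1A8 alone. The other 8 UGT1A genes were on neither list, and a high level of UGT1A7 cannot be told apart from one of its neighbours.

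Alcohol dehydrogenases gave ADH5 high and ADH1B, ADH4 and ADH7 low. ADH5 (chr4:99992132-100009902) is the form of nearly all tissues that clears formaldehyde bound to glutathione, whereas ADH1B and ADH4 oxidise ethanol in liver and ADH7 serves stomach and upper gut lining. Aldehyde dehydrogenases gave 4 high and 2 low beside the retinal enzymes. ALDH2, the mitochondrial enzyme of acetaldehyde, ALDH3A2, which oxidises fatty aldehydes, ALDH9A1 and ALDH18A1, an enzyme of proline synthesis, were high. ALDH3B2 and ALDH7A1 were low. ALDH7A1 breaks down lysine in many tissues, and its nearest listed gene outside the families, PHAX, 4.85 kb away, was on the high list. ALDH1A3 (chr15:101417919-101456831), which makes retinoic acid, was the sole listed gene of the retinoid and vitamin D role, and the 9 others, among them ALDH1A1, CYP24A1 and CYP26A1, were on neither list.

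Aldo-keto reductases gave AKR1B1, the aldose reductase, high, along with AKR1C1 and AKR1C3, which reduce steroids and carbonyl compounds. AKR1CL1 was low, and 9 of 13 RefSeq genes with the name AKR, among them AKR1B10, AKR1C2 and AKR1C4, were on neither list. AKR1C1 shared 28.7% of its windows with other genes of the families, 28.3% with AKR1C2, and its deposited row spans 87.4 kb, 4.36 times its GENCODE span. Whether fragments of AKR1C2 were counted for AKR1C1 was not tested.

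Glutathione transferases gave 4 high and 8 low, and the mu class (GSTM) stood on both lists. GSTP1 (chr11:67351066-67354131), the form known for high levels in many carcinomas, GSTO1, GSTK1 of mitochondria and peroxisomes, and GSTM3 were high. All 4 listed alpha genes were low (GSTA1, GSTA2, GSTA3 and GSTA5), as were GSTM1, GSTM2, GSTM5 and GSTT1. The alpha class is abundant in liver, and GSTM1 and GSTT1 are deleted in the genome of many people. Whether SiHa cells carry them was not tested.

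Sulfotransferases were low without exception among those listed, at 0 high and 7 low. SULT1B1, SULT1C2, SULT1C3 and SULT1C4 act on phenols and related compounds. SULT1E1 conjugates oestrogens, SULT2A1 conjugates dehydroepiandrosterone and bile acids, and SULT2B1 conjugates cholesterol. SULT1A1 and the other SULT1A genes were on neither list.

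Steroid hormone synthesis was represented unevenly along the pathway. CYP11A1 (chr15:74630100-74660081), which cuts the cholesterol side chain in the opening step, was high. CYP17A1 of androgen and cortisol synthesis, CYP11B1 of cortisol synthesis and CYP11B2 of aldosterone synthesis were low, and CYP19A1 and CYP21A2 were on neither list. Of the other genes of the pathway, the cholesterol carrier STAR and the electron donors FDX1 and FDXR were on neither list, while HSD3B2 and the lineage factor NR5A1 were low. Among sterol enzymes CYP51A1 of cholesterol synthesis (chr7:91741465-91772266) was high. CYP7A1, the rate-limiting enzyme of bile acid synthesis, and CYP7B1 were low.

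ABC proteins gave 9 high and 5 low, but 4 of the high ones act on ribosomes and translation and do not transport: ABCE1, ABCF1, ABCF2 and ABCF3. Without these the transporters gave 5 high and 5 low, and 31 of 41 were on neither list. The share of 50% on the high list is close to the 50.6% of all listed symbols. ABCC1, ABCC3 and ABCC5, which export drug and glutathione conjugates, were high. ABCC8, the sulfonylurea receptor of insulin secreting cells, and ABCC12 were low. ABCD3 of peroxisomes and ABCA2, a lipid transporter, were high. The related ABCD2, ABCB4, which moves phosphatidylcholine into bile, and ABCG8, which moves sterols into bile and gut, were low. ABCB1, the P-glycoprotein of multidrug resistance, and ABCG2, another drug exporter, were on neither list. Of ABC genes with other names and their partners, the peptide transporters TAP1 and TAP2, their partner TAPBP and PEX19, which brings proteins such as ABCD3 to peroxisomes, were high. The chloride channel gene CFTR was on neither list.

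Many members lay beside another member. With gaps of at most 100 kb, 47 of the 115 members fell into 18 runs of neighbours. Of these runs 12 held low genes alone, 6 held genes of both lists and 0 held high genes alone, so 40 of the 67 low and 7 of the 48 high members had such a neighbour. Chromosome 4 carried 16 of the low members, 11 of them in 1 stretch described next, and 2 of the high ones. Chromosome 19 carried 8 low and 2 high. Runs and chromosomes were not counted for all listed genes, so whether these counts are particular to the members was not tested.

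A stretch of 1323 kb on chromosome 4 (hg19 69402902 to 70725870) held 11 low members in 3 runs, from UGT2B17 to SULT1E1, and no other listed gene. The GSTA genes on chromosome 6 gave 4 low in 160 kb, CYP2A6 to CYP2F1 on chromosome 19 gave 4 low in 285 kb, and CYP4B1 to CYP4A22 on chromosome 1 gave 4 low in 351 kb, again with no other listed gene between them. Genes of 1 subfamily in such a stretch are duplicates that share sequence, and they are not independent observations. Counting neighbours on the same list as 1 locus turned 67 low members into 45 and 48 high members into 47, and 51.1% of the loci were then high. The same merging was not done for all listed genes.

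**Figure D2:**
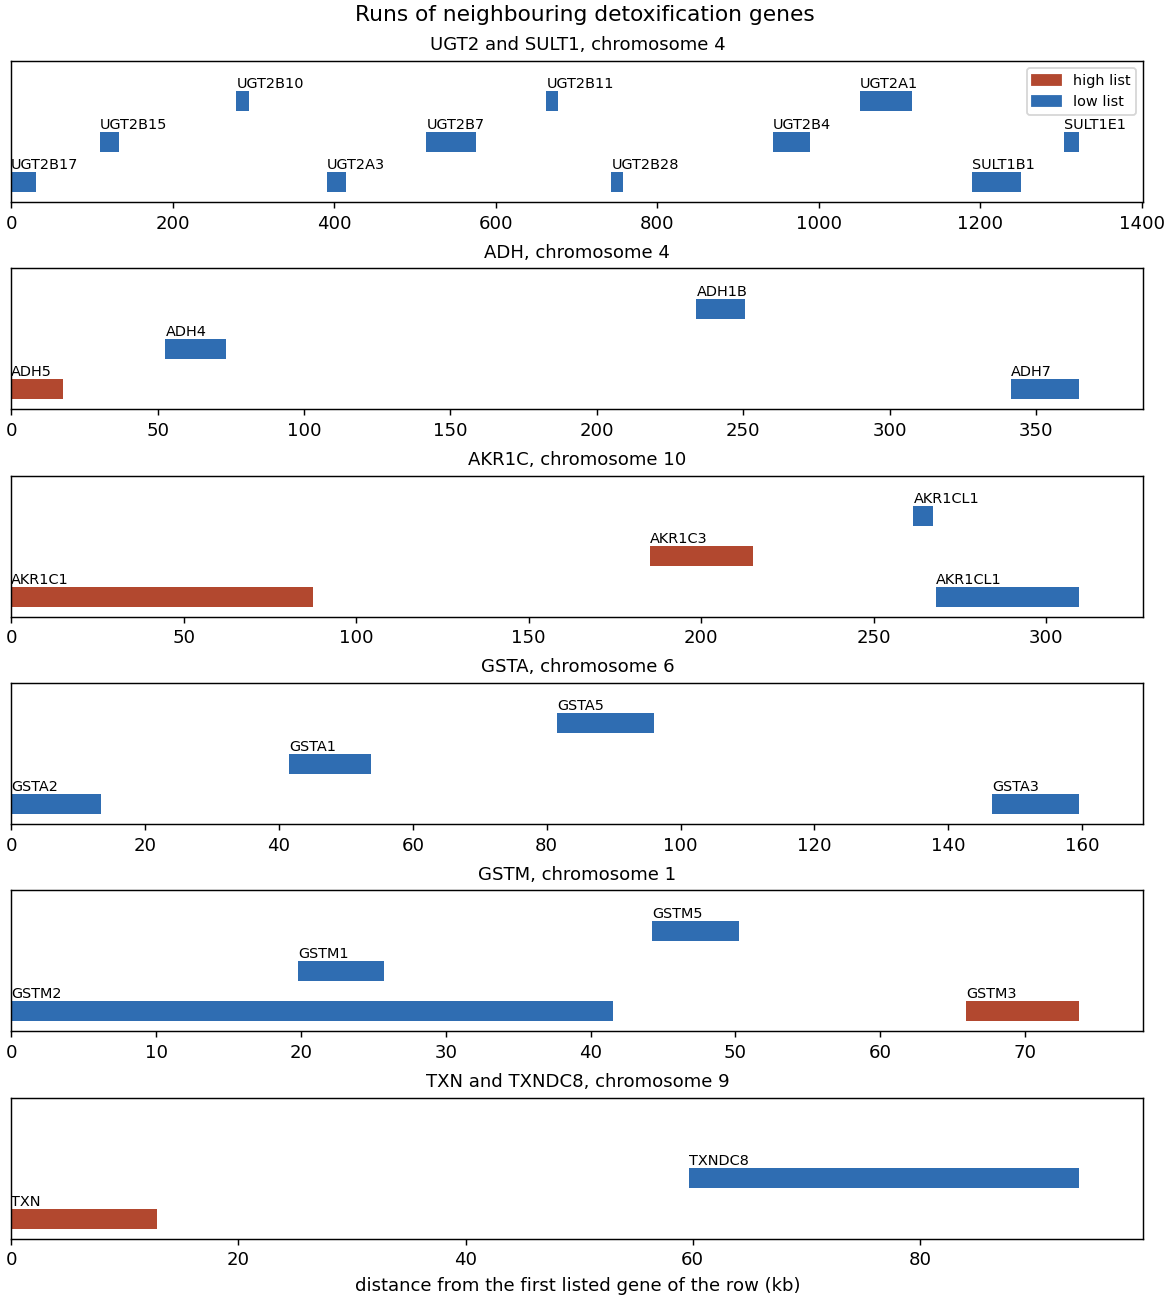
Gene spans from the deposited hg19 rows in 6 stretches, with distance from the first listed gene (kb) on the horizontal axis and colour for the list; vertical offsets only separate the names. The 11 genes of the top panel are all low, while ADH5, GSTM3 and TXN are high beside low neighbours.

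Sharing a list with the nearest listed gene, of any family, was about as frequent among members as among all listed genes. For high members that gene was also high in 38 of 48, or 79.2%, against 76.3% of all high genes, at a median distance of 19.6 kb against 20.9 kb. For low members it was also low in 46 of 67, or 68.7%, against 72.8% of all low genes, at a median distance of 43.7 kb against 26.0 kb. When genes of the families were passed over, the nearest listed gene was also low for 31 of 67 low members, and TMPRSS11E was that gene for 6 of the UGT2 members. This last count has no like value for all low genes, whose own families were not passed over. No test was run on these shares.

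Of the 6 runs on both lists, 3 are shown by the promoters of a high gene and its low neighbour: ADH5 and ADH4, 34.9 kb apart, GSTM3 and GSTM5, 15.7 kb apart, and TXN and TXNDC8, 46.9 kb apart, in each case with the high gene named before the low one. The windows run from 250 bases before to 50 bases after the RefSeq start (GRCh38.p14) and are shown 5′ to 3′ on the gene's strand, with each CG pair in capitals. They are at chr4:99088739-99089038 (minus) for ADH5, chr4:99144248-99144547 (minus) for ADH4, chr1:109740989-109741288 (minus) for GSTM3, chr1:109712001-109712300 (plus) for GSTM5, chr9:110256458-110256757 (minus) for TXN and chr9:110337814-110338113 (minus) for TXNDC8. They are shown because most high members had many CG pairs and most low members few, while the GSTM pair goes the other way.
ADH5: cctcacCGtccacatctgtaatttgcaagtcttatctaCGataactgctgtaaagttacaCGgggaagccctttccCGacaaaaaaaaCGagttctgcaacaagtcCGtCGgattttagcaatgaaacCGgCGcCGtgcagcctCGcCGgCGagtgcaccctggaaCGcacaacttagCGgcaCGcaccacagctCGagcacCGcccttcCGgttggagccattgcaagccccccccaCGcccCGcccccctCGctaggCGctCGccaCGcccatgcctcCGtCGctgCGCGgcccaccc
ADH4: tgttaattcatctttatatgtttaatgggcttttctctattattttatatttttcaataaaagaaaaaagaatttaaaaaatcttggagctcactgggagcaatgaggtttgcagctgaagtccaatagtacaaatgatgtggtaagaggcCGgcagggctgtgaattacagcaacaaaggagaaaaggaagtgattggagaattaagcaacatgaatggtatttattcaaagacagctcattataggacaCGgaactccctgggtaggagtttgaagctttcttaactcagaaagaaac
GSTM3: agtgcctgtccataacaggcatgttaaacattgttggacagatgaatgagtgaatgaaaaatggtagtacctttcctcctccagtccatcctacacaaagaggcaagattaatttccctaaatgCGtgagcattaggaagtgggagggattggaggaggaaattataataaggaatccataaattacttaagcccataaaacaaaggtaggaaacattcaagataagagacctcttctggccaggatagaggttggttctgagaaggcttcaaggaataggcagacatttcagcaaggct
GSTM5: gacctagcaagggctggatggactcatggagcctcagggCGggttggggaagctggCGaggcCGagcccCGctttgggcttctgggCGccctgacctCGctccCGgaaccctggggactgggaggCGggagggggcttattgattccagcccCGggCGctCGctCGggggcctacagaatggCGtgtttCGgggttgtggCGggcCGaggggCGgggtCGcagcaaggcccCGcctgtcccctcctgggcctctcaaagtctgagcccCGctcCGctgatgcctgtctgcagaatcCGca
TXN: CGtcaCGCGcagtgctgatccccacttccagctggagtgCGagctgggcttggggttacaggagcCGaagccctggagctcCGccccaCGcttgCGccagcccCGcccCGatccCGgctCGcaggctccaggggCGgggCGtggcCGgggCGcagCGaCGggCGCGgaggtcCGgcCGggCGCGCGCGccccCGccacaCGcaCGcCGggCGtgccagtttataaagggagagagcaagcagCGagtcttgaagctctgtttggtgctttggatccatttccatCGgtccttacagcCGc
TXNDC8: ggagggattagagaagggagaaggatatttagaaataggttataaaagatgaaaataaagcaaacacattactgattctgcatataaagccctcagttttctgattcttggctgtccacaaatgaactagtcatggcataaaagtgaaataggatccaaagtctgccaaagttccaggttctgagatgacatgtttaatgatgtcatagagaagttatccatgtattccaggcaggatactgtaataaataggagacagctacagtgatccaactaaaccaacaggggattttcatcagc

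The ADH5 window holds 29 CG pairs and that of ADH4 holds 2. Further along the same stretch ADH1B has 1 and ADH7 has 2. TXN has 34 and TXNDC8 has 0. In the GSTM run the order is turned round: GSTM3, the high gene, has 1 CG pair, while its low neighbours GSTM5, GSTM1 and GSTM2 have 22, 22 and 17. In other runs on both lists, ABCC5 has 26 beside 6 in its antisense gene ABCC5-AS1, and AKR1C3 has 0 beside 3 in AKR1CL1. Other starts of these genes were not read, and which start SiHa cells use was not tested.

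Windows were found for 92 of 115 members, or 80%, which splits into 40 of 48 high and 52 of 67 low members. High members had a median of 27 CG pairs (quartiles 16.8 and 35.2) and low members 2.5 (quartiles 1 and 6.25). All high genes with a window had a median of 28 and all low genes 5. The ratio of observed to predicted CG pairs, which corrects for C and G content, had a median of 0.858 in high and 0.172 in low members, against 0.882 and 0.295 in all high and all low genes. The contrast between the lists was thus present in all listed genes as well. As background, CG-rich promoters are typical of widely expressed genes.

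Some members went against the median of their list. At most 5 CG pairs were found in 7 of 40 high members, or 17.5%, against 3.64% of all high genes with a window. The 7 were AKR1C3 with 0, GSTM3 with 1, UGT1A7 with 2, AKR1C1 with 3, GPX8 with 4, and CYP11A1 and TXNDC15 with 5 each. The deposited rows of AKR1C3, GSTM3 and AKR1C1 span 0.413, 1.1 and 4.36 times their GENCODE spans, and the other rows are close to theirs. Whether the windows lie at the starts of the deposited rows was not tested. Among low members 36 of 52, or 69.2%, had at most 5, against 51.5% of all low genes. At the other end ALDH1L1-AS1, an antisense gene, had 37, GSTM1 and GSTM5 22 each and UGT8 18.

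**Figure D3:**
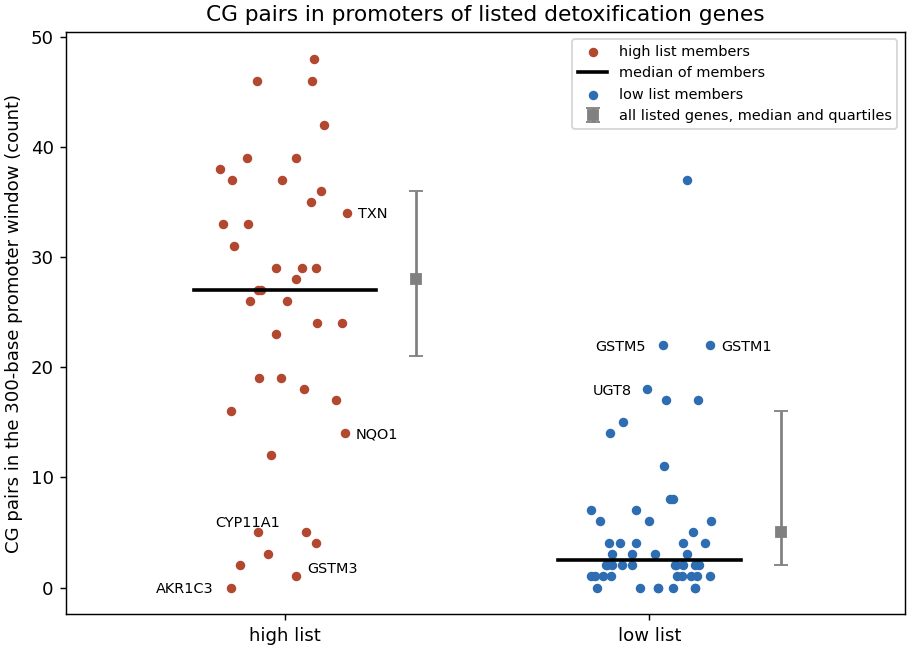
CG pairs in the 300-base window (vertical axis, count) for each high and low member (points, spread sideways at random), with the members' median as a bar and the median and quartiles of all listed genes as grey squares with whiskers. Medians are 27 in high and 2.5 in low members, and GSTM3, AKR1C3 and CYP11A1 lie at the bottom of the high members.

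The letters TATAAA of the TATA box motif were looked up on either strand and at any position in the window. They were in 4 of 40 high windows (10%) and in 20 of 52 low windows (38.5%). Of 27305 RefSeq windows of the same length, 11.95% held them. Whether a match lies where a TATA box works was not tested, and no correction was made for C and G content. Low members with a match included CYP3A4, CYP2A6, CYP2E1, ADH4, GSTA1 and SULT1E1. Some of the 20 are neighbouring duplicates, such as CYP2A6 and CYP2A7 or GSTA1 and GSTA2. No motif share is given here for all high or all low genes. Whether the share of 38.5% is particular to low members was therefore not tested. The core of the antioxidant response element that NRF2 binds, TGACNNNGC on either strand, was in 6 of 40 high windows (15%) and in 8 of 52 low windows (15.4%), against 13.6% of all windows. The high genes holding it were ABCA2, ABCF1, GSTO1, GSTP1, TXNL1 and TXNRD1, and the window of NQO1 did not hold it. These are matches of letters within 300 bases and say nothing of sites farther away.

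Shared sequence limits what a listed symbol stands for. Over 20% of the 50-base transcript windows recurred in another gene of the families for 15 of 67 low members and for 3 of 48 high members (UGT1A7, AKR1C1 and GPX1, the last mostly through the pseudogene GPX1P1). GSTM1 shared 58.5% of its windows, 46.0% with GSTM2, whose deposited row also encloses it. CYP2A6 shared 39.8%, CYP4A11 and CYP4A22 shared 38.6% and 38.5%, UGT2B15 and UGT2B17 27.5% and 27.8%, and in all of these pairs the partner was low too. How fragments that fit several copies were counted is not stated in the sources used here, so the place of these genes is uncertain. No transcript was matched for GSTT1 and AKR1CL1.

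**Figure D4:**
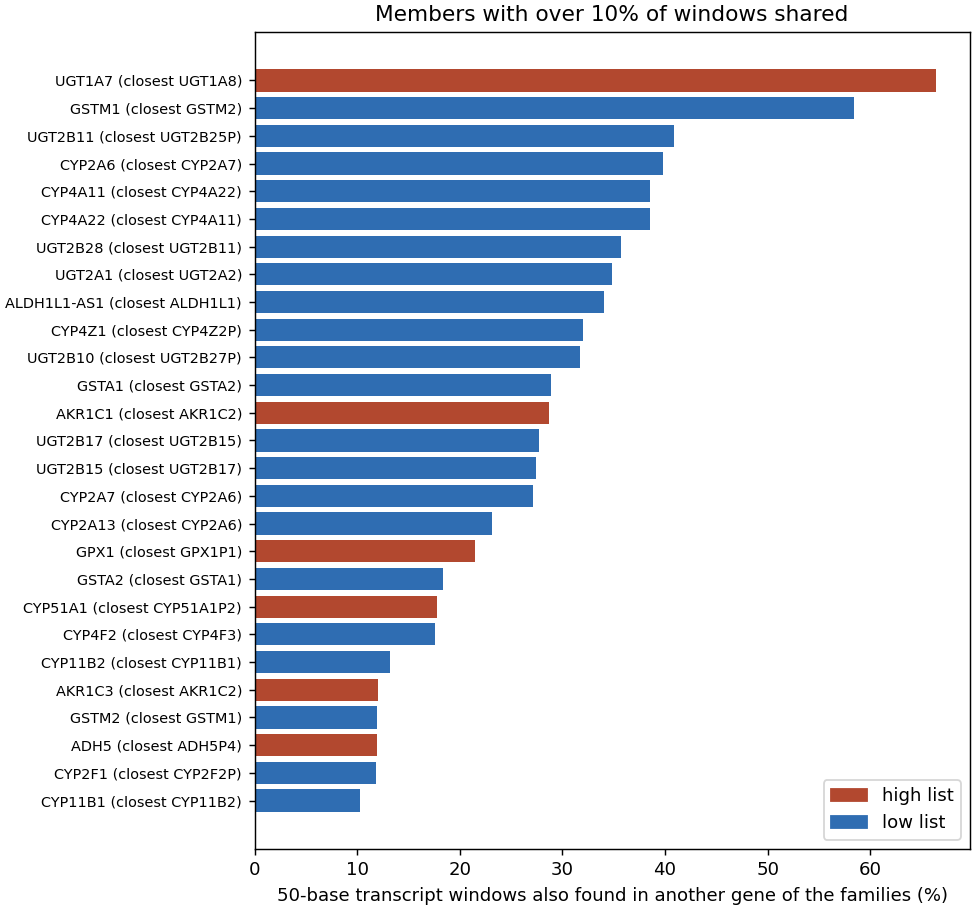
Share of 50-base transcript windows found letter for letter in another gene of the families (horizontal axis, percent) for each member above 10%, with the closest gene in brackets and colour for the list. UGT1A7 leads at 66.4%, and most other bars belong to low members.

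Some members overlapped a neighbour. ABCC5-AS1, an antisense gene on the low list, lies within ABCC5 on the high list over 5.08 kb on the opposite strand. GPX5 and GPX6, both low, overlap by 9.03 kb on opposite strands. ABCF3 lies wholly within the row of the high gene EIF2B5 on the same strand, over 7.99 kb. CYP11B1 lies wholly, over 7.49 kb, and CYP11B2 in most of its length, over 5.95 kb, within the row of the low gene GML on the opposite strand. TXNDC3 overlaps the low gene EPDR1 by 51.8 kb on the same strand. How fragments in these overlaps were counted is not stated in any source used here, so the place of these members is uncertain. AKR1CL1 had 2 rows on the low list and was counted as 1 symbol. Members were similar in length between the lists, with a median span of 21.9 kb (range 1.42 to 193 kb) for high members and 18.2 kb (3.66 to 203 kb) for low members, against 33.2 and 10.9 kb for all high and all low genes. The median C and G content of the longest transcript was 47.5% in high and 44.0% in low members, and 47.5% and 47.8% in all high and all low genes.

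Related genes outside the name rule were looked up in sets written by hand from general knowledge, with earlier results on the same lists known. Their shares stand beside 22.3% high and 18.8% low over all RefSeq protein coding genes. NRF2 pathway regulators gave 8 of 13 (61.5%) high and 0 low. They include NFE2L2, which encodes NRF2, the related NFE2L1, the partner MAFG, the inhibitor KEAP1 with its ligase subunit CUL3, and DPP3, which binds KEAP1. Glutathione synthesis and recycling gave 7 of 18 (38.9%) high and 0 low. The high ones include GCLM and GSS of glutathione synthesis, PGD, which supplies NADPH, GGCT and GLRX3. GCLC, GSR and SLC7A11 were among the 11 on neither list. Further antioxidant genes gave 10 of 23 (43.5%) high and 0 low. The high ones include CAT, which encodes catalase, the ferritin genes FTH1 and FTL, HMOX2, MGST1 and ERO1A. Not all of the 10 are antioxidant genes: ERO1A encodes an oxidase that makes hydrogen peroxide, and OXSR1 encodes a kinase. HMOX1 was among the 13 on neither list.

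Other oxidising and conjugating enzymes gave 13 of 36 (36.1%) high, including CBR1, CES2, CYB5R3, EPHX1 and MAOB. The 6 low ones (16.7%) included the flavin monooxygenases FMO1 and FMO2, the acetyltransferase NAT2, and PON1 and PON3, which circulate with lipoproteins. Receptors and factors of foreign compounds and bile acids gave 4 of 28 (14.3%) high and 3 (10.7%) low, both under the shares over all genes. AHR, the dioxin receptor, its repressor AHRR, NR1H2 and RARG were high. NR1I2, the liver factor FOXA2 and RXRG were low, and the other 21, among them ARNT, were on neither list.

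Carriers of drugs and organic ions gave SLCO4A1 high (4.35%) and 9 of 23 (39.1%) low, including SLC10A2, SLC15A1, SLC22A6, SLC22A7, SLC22A8 and SLCO1A2, which are known from kidney, gut, liver or brain vessels. Other steroid hormone genes were near the shares over all genes, with 7 of 36 (19.4%) high and 8 (22.2%) low. The high ones included HSD17B4, HSD17B10, HSD17B12, SRD5A1, POR and the glucocorticoid receptor NR3C1. The low ones included HSD11B1, HSD17B2, HSD3B2, NR0B1 and NR5A1, the last a factor of the steroid producing lineage.

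Cell type markers were compared with the labelled cell line, again beside 22.3% high and 18.8% low over all RefSeq protein coding genes. Epithelial and cervical carcinoma markers gave 10 of 20 (50%) high, including CDKN2A, EGFR, ITGA6, KRT7, KRT17 and KRT18, and KRT5 was the low one. Hepatocyte markers gave 13 of 30 (43.3%) low, including ALB, AHSG, APOA2, APOB, APOC3 and APOH, and VTN was the high one. Steroidogenic cell markers gave 0 of 11 high and 7 (63.6%) low, among the low ones MC2R, the receptor of adrenocorticotropic hormone. HSD3B2 and NR5A1, also among these low ones, were counted with the other steroid hormone genes as well. In the steroid hormone role, CYP11B1, CYP11B2 and CYP17A1 were low, while CYP11A1, AKR1C1 and AKR1C3 were high. Its other low members, SULT1E1, SULT2A1 and SULT2B1, conjugate steroids or cholesterol and were not compared with these markers. Leukocyte markers gave 0 of 15 high and 7 (46.7%) low. Fibroblast markers gave 1 of 12 (8.33%) high, FBLN1, and 2 (16.7%) low, DPT and COL1A2, both under the shares over all genes. The other 9 were on neither list.

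**Figure D5:**
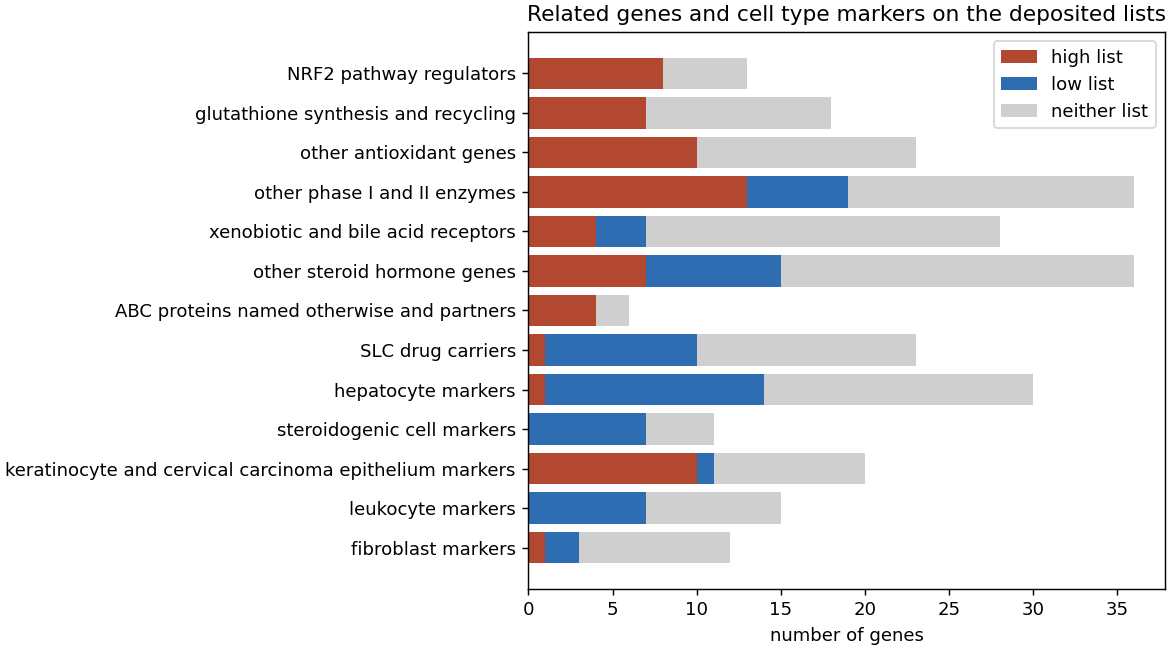
Number of genes (horizontal axis) on the high list, the low list and neither for 8 sets of related genes and 5 sets of cell type markers (vertical axis). The 3 sets at the top (NRF2 pathway regulators, glutathione genes and other antioxidant genes) hold 0 low genes. The hepatocyte set holds 13 low genes and 1 high gene.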

How the data were processed

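Per the labels' protocols, scraped cells of each fraction were pooled, and TruSeq libraries were made from Trizol RNA after a DNase step. Cuffdiff, Cufflinks 2.2.1, TopHat2, CASAVA 1.8.2 and the build hg19 appear in the submitters' processing notes without settings. Per the file headers, the deposited table of libraries is Cuffdiff's, with estimated counts of fragments per locus; only their totals were used here. Per the file headers, the other 2 deposited tables give symbol, start, end and strand, and the column for a value is empty; their build was taken as the hg19 of the notes. No source used here states how genes were selected for them.

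Members were matched by symbol and placed in 19 roles by name patterns, 1 of which was corrected after the lists were seen so that ALDH2 got its role. Distinct symbols were counted, and the 4 symbols on both lists were left out of the background. Members, roles and gene sets were chosen with earlier results on these data known. Every listed member was named in roles of at most 15, and in larger ones neighbours, exceptions and an example; all 20 antioxidant members are named, beyond that rule. Of the related sets up to 6 genes a side were named in alphabetical order, except some that are not reported here. STAR, FDX1, FDXR, CFTR, other genes on neither list and the motif examples were picked with their place known. Denominators, older symbols and promoter windows came from RefSeq (GRCh38.p14), and transcripts from GENCODE 29 (113 of 115 members matched). GRCh38 served for sequences, names and lengths only, and all gene positions are hg19. Windows of 50 bases of the longest transcript were looked up on both strands in all transcripts of other genes that fit the rule. Python 3.11.15 with pandas 2.3.3 was used. No model was fitted, since no row of the library table could be tied to a member. The alternatives left out or merged members, matched older symbols or changed the window.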

Additional observations from a re-analysis of the deposited data

How the results depend on the processing

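No paired analysis was possible because the lists come with no library and the results come from no test. The high count of 48 was 38 to 48 and the low count of 67 was 45 to 68 over the alternatives. The share of members on the high list, 41.7%, was 36.9% without thioredoxin-domain, ABCE and ABCF genes, 46.4% without members that share over 20% of their windows, and 51.1% with neighbours merged, for which no merged share of all listed genes was computed. The liver roles moved most: their 23 low genes became 13 with neighbours merged, by construction, and 14 without members sharing over 20% of windows, with 3 and 2 high. Antioxidant genes stayed at 15 to 16 high and 3 to 4 low, and steroid genes at 3 to 4 high and 7 to 8 low. Older symbols removed TXNDC3 alone. The window without the 50 bases after the start gave median CG ratios of 0.848 for high and 0.164 for low members. The longest row per symbol left the median span of high members at 21.9 kb and gave 18.7 kb for low members. The exclusion by shared windows, and older symbols for the total counts, were chosen after seeing the data. With no value per gene, how far a listed gene lies from the limits of its list is unknown.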
